A study of Mus musculus with 8 samples.

Results

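Sall4-depleted mouse embryonic stem (ES) cells were compared with control ES cells, gene by gene across the genome, on 4 of the 8 microarrays of the series. Depleted cells carried a lentivirus with a short hairpin RNA (shRNA) directed at both Sall4 isoforms, and control cells carried a lentivirus without an shRNA. All were CJ7 cells, a mouse ES cell line kept in leukaemia inhibitory factor (LIF). Virus was left on the cells for 24 hours in the presence of 2.5 mcg/mL polybrene, infected cells were selected in 2 mcg/mL puromycin, and RNA was taken 48 hours from infection. Each group had 2 arrays, labelled as biological replicates with no word on how the cultures differed, so a p-value here rests on the spread between arrays, some of which may be technical. The control virus held no shRNA at all, so the effect of less Sall4 and the effect of carrying an shRNA cannot be told apart. In the other 4 arrays a cDNA of 1 Sall4 isoform was added back; they entered only the shared estimate of the spread between replicates.

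Sall4 is a zinc-finger transcription factor of the spalt family. In ES cells it binds many of the same genes as Oct4 (Pou5f1) and Nanog, recruits the histone deacetylase complex NuRD, and is known for restraining the trophoblast programme. Its transcript gives a long isoform, Sall4a, and a short one, Sall4b.

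Values are log2 intensities of 1 probe set per gene, the brightest for that gene. Probe sets needed a present call on 2 or more of the 8 arrays, which left 14027 genes. Median intensity ran from 145.4 to 149.8 over the 4 arrays, and 63.8% to 66.5% of probe sets were called present. Over all genes the difference between replicates had an SD of 0.27 log2 in depleted cells and 0.41 log2 in control cells. On the arrays with an added cDNA it was 0.62 log2 for Sall4a and 0.28 log2 for Sall4b. Since these arrays share in the SE, an SE can exceed the spread of the 4 arrays compared. More than 1 log2 separated the replicates of 100 genes in depleted cells and of 420 genes in control cells, so a difference that turns on 1 control array is named as such below. Of 37 measured ES cell markers, 37 were called present on all 4 arrays. Fibroblast and feeder markers were present as well, 29 of 31 on all 4 arrays, and the labels do not say whether feeder cells were used.

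Both Sall4 probe sets read lower in depleted than in control cells. The brighter probe set had intensities of 10489 and 10332 in depleted cells, against 15076 and 13778 in control cells, so that 72.2% of the control signal remained. The dimmer one had 137 and 156 in depleted cells, against 362 and 334 in control cells, or 42.1% of control. In neither did the groups overlap. With limma over all probe sets, and arrays not paired by replicate number, neither passed the test. The log2 difference was -0.47 (SE 0.11, limma adjusted p = 0.463) for the brighter and -1.25 (SE 0.20, limma adjusted p = 0.370) for the dimmer probe set. With the replicate number as a block on the 4 arrays, the dimmer one passed (limma adjusted p = 0.0225) and the brighter did not (limma adjusted p = 0.129). Of the other family members, Sall3 had log2 intensities of 7.62 and 7.97 in depleted cells, against 6.57 and 6.95 in control cells, a difference of 1.04 (SE 0.23, limma adjusted p = 0.416). Sall1 was higher by 0.48 in depleted cells, without overlap, while its other probe set gave 0.28 with overlapping groups. Sall2 differed by -0.23 with overlapping groups.

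No gene passed the test between depleted and control cells when arrays were not paired by replicate number. With limma and Benjamini-Hochberg adjustment, 0 of 14027 genes (0%) had an adjusted p under 0.05 in either direction, and the smallest adjusted p was 0.139. At an unadjusted p under 0.05 there were 577 genes higher (4.11%) and 534 lower (3.81%) in depleted cells, 1111 in all where 701 are expected by chance. With the replicate number as a block on the 4 arrays, limma called 272 genes. With the same block on all 8 arrays it called 0. The count of calls thus turned on a pairing that the labels do not state, together with leaving out the other arrays. Everything below is therefore given as levels and differences, with the share of all genes that do the same. Both depleted arrays lay above both control arrays for 3013 genes (21.5%) and below both for 2754 (19.6%). The mean was higher in depleted cells for 7121 genes (50.8%) and lower for 6906 (49.2%), and the median difference was 0.0038 log2. An exact permutation test of 2 arrays against 2 cannot give a two-sided p below 0.333.

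Large differences ran mostly upward. Among genes whose groups did not overlap, 174 (1.24%) were at least 1 log2, that is at least 2-fold, higher in depleted cells, and 67 (0.478%) were at least 1 log2 lower. These counts depended on single arrays. Without control replicate 1 they were 264 higher and 206 lower, and without depleted replicate 2 they were 195 higher and 124 lower.

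**Figure D1:**
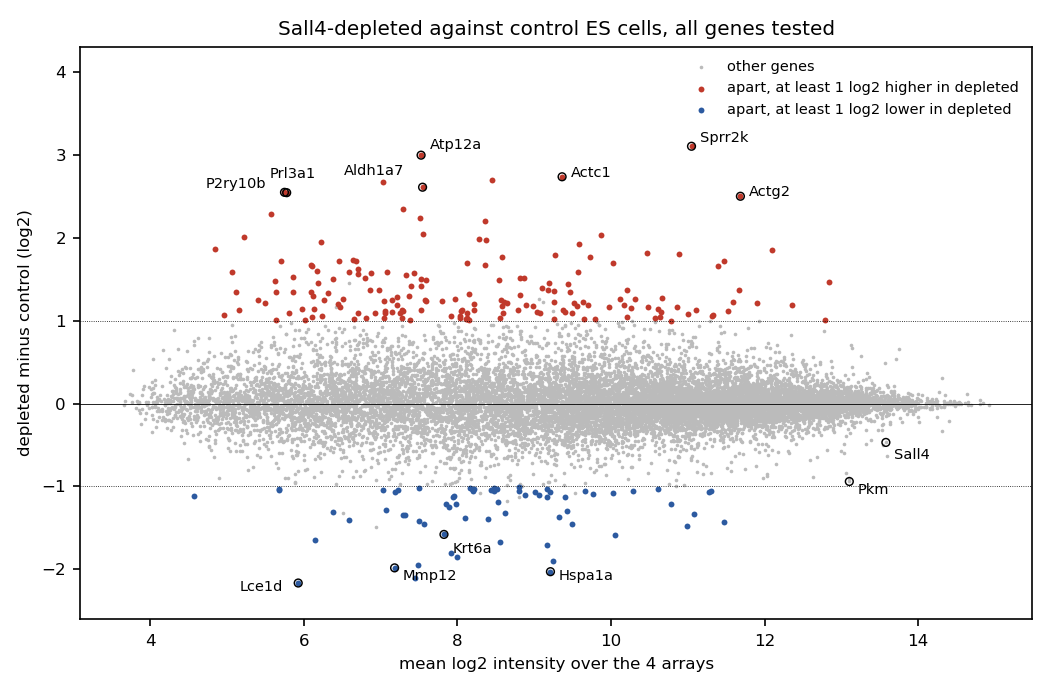
Difference between depleted and control cells (vertical axis, log2) against mean log2 intensity over the 4 arrays (horizontal axis) for 14027 genes. Red points are the 174 genes at least 1 log2 higher and blue points the 67 genes at least 1 log2 lower in depleted cells without overlap between groups; circles mark genes named in the text, and Sall4 lies at -0.47.

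The 15 higher genes with the smallest p among these are of several kinds. P2ry10b, which encodes a G protein-coupled receptor of the P2Y family, had log2 intensities of 7.26 and 6.79 in depleted cells, against 4.48 and 4.47 in control cells. The difference was 2.55 (SE 0.21, limma adjusted p = 0.139), or 5.85-fold. Atp12a, the catalytic subunit of the non-gastric proton-potassium pump, had 8.83 and 9.22 in depleted cells, against 6.26 and 5.80 in control cells, a difference of 3.0 (SE 0.31, limma adjusted p = 0.180). It had the second largest difference of any gene on the arrays. Prl3a1, a member of the placental prolactin family, had 7.36 and 6.74 in depleted cells, against 4.74 and 4.27 in control cells, a difference of 2.54. Coch, which encodes the secreted matrix protein cochlin, had 11.00 and 10.78 in depleted cells, against 9.14 and 8.56 in control cells, a difference of 2.04. The matrix protein gene Sned1 differed by 2.20, and Prr32, which was called present on no control array, was at least 4.03-fold higher in depleted cells.

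Also among these 15, Nkx2-2, a homeodomain factor of the ventral neural tube, had 6.94 and 6.90 in depleted cells, against 5.19 and 5.32 in control cells, a difference of 1.67 (SE 0.18, limma adjusted p = 0.180). En2, a homeodomain factor of the midbrain-hindbrain boundary, had 9.83 and 10.04 in depleted cells, against 8.65 and 8.50 in control cells, a difference of 1.36. The Krüppel-like factor gene Klf12 was higher by 1.01. The remaining genes were Rsph4a (1.37), which encodes a radial spoke protein of cilia, Akr1c14 (2.68), an aldo-keto reductase, the reticulon gene Rtn1 (1.01), the ubiquitin ligase gene Hecw2 (1.72), Tex26 (1.06) and the kinase-like gene Styk1 (1.12).

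The 15 lower genes with the smallest p were likewise of several kinds. Mmp12, macrophage elastase, had log2 intensities of 6.27 and 6.11 in depleted cells, against 8.15 and 8.19 in control cells, a difference of -1.98 (SE 0.17, limma adjusted p = 0.139), or 3.95-fold lower. Lce1d, a component of the late cornified envelope, had 5.12 and 4.57 in depleted cells (no present call), against 7.16 and 6.86 in control cells, so it was at least 4.48-fold lower. The hair keratin-associated gene Krtap4-16 (-1.65) and the keratin gene Krt6a (-1.58) were lower without overlap too. Krt6a had 3 kept probe sets, with differences of -1.58, -1.56 and -1.22, each without overlap.

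Also among the 15 lower genes, Esx1, an X-linked homeobox gene of the placenta, had 7.64 and 7.71 in depleted cells, against 8.54 and 8.93 in control cells, a difference of -1.06. Dlx3, a homeobox factor needed for the placenta, differed by -1.0. Hspa1a, the inducible chaperone Hsp70, had 7.92 and 8.48 in depleted cells, against 9.95 and 10.51 in control cells, a difference of -2.03 (SE 0.40, limma adjusted p = 0.390). The rest were Slc34a2 (-1.67), a phosphate transporter, Fam183b (-1.34), Fbxo32 (-1.33), the F-box protein atrogin-1, Rrad (-1.19) and Rnd1 (-1.10), both small GTPases, and Slc23a3 (-1.04). The trefoil peptide gene Tff1 was at least 2.38-fold lower and the interferon-induced gene Rsad2 at least 2.05-fold lower, since neither was called present on a depleted array. Of the 30 genes, 5 had other kept probe sets, 10 in all, and 0 of these went the opposite way.

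**Figure D2:**
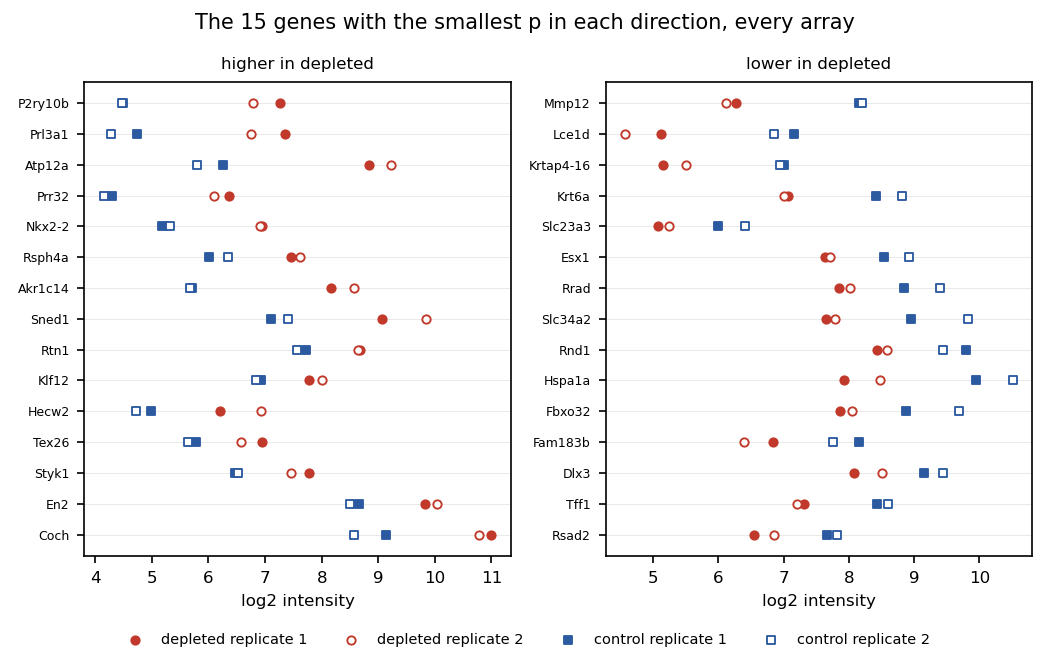
Log2 intensity on every array for the 15 named genes with the smallest p in each direction, among genes without overlap that differ by at least 1 log2. Circles are depleted and squares control arrays, filled for replicate 1 and open for replicate 2; for P2ry10b the depleted arrays lie at 7.26 and 6.79 and the control arrays at 4.48 and 4.47.

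Gene lists were then read across the same comparison, each by how many of its measured members lay above or below control. The lists were chosen with earlier results of these data known, so their counts describe and do not test. Each share without overlap is to be read beside that of all genes, 21.5% higher and 19.6% lower. In the widest shift upward, contractile and smooth muscle genes were higher in depleted cells, and in the widest downward shifts by share of members, heat shock genes and genes of lysosomes and autophagy were lower.

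**Figure D3:**
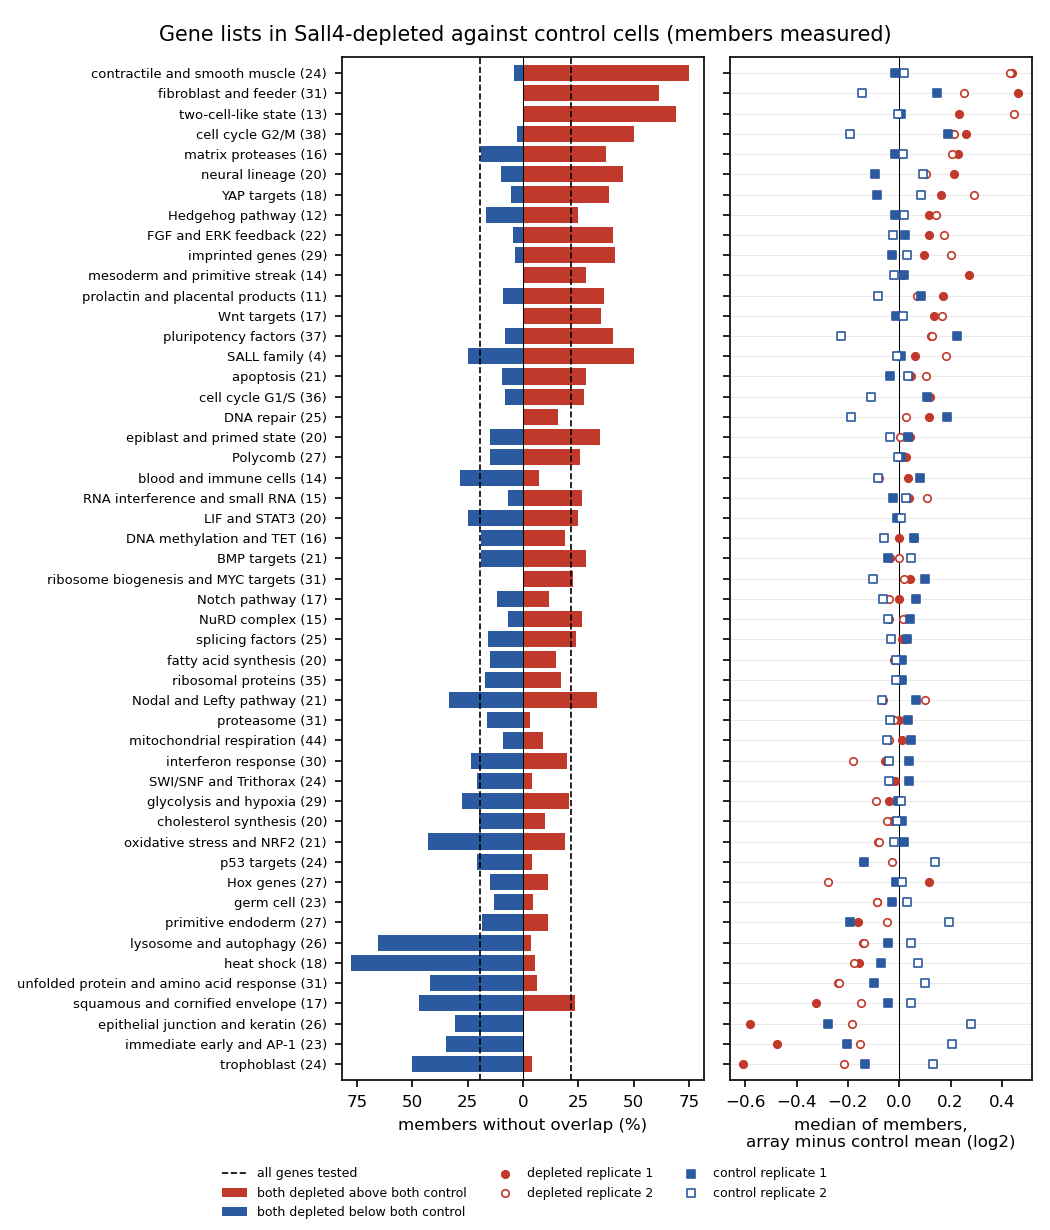
For 50 gene lists (members measured in parentheses), the left panel gives the percent of members with both depleted arrays above both control arrays (red) or below both (blue), with dashed lines at 21.5% and 19.6% for all genes tested. The right panel gives, per array, the median over members of the log2 intensity minus the control mean; contractile genes have 75% of members above, and the medians of the 2 depleted arrays are 0.44 and 0.43.

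Contractile genes encode the actins, myosins and actin-binding proteins of smooth muscle and of the cytoskeleton, and many are targets of serum response factor (Srf), which binds the CArG box. Of 24 measured genes on this list, 22 had a higher mean in depleted cells. Without overlap, 18 (75%) were higher and 1 (4.17%) lower, where all genes gave 21.5% and 19.6%. At an unadjusted p under 0.05 there were 3 higher and 1 lower, where all genes gave 4.11% and 3.81%. After adjustment 0 passed. The median difference was 0.46 log2, and it stayed between 0.43 and 0.48 when any 1 of the 4 arrays was left out.

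Promoters of 3 of the contractile genes that were higher in depleted cells are shown here because each holds a CArG box within 250 bases before the annotated start of transcription. Sequences are RefSeq's, build GRCm38.p6, 5′ to 3′ on the gene's strand, with the CArG box in capitals. Actc1 lies at chr2:114052876-114053125 on the minus strand, Acta1 at chr8:123894776-123895025 on the minus strand and Myl9 at chr2:156775214-156775463 on the plus strand.
Actc1: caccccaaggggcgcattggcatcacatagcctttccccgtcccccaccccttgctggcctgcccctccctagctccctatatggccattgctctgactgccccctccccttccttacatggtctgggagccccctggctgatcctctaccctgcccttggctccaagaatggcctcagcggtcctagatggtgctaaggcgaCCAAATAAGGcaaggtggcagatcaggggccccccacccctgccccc
Acta1: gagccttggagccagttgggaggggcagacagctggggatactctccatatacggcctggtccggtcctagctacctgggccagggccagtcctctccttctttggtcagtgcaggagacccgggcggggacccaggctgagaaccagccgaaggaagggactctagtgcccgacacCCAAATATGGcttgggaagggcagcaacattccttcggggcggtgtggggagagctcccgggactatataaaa
Myl9: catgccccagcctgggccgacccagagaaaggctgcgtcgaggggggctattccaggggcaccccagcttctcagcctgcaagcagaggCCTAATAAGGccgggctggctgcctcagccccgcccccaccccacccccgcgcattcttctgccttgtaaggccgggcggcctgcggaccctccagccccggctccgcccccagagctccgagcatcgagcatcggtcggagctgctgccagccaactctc

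The last base of the box lies 38 bases before the start of transcription in Actc1, 64 in Acta1 and 152 in Myl9. A CArG box on either strand was found in these 250 bases for 6 of 20 contractile genes with a promoter in the table (30%): Acta1, Actc1, Cnn2, Myl9, Srf and Vcl. Over all 27025 genes in the table the share was 1.62%. The share was taken over list members whatever their difference, so it describes the list and not the effect of depletion. A match shows the letters only, and binding was not measured here.

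The actins and their partners had the largest values of the list. Actc1, cardiac muscle actin, had log2 intensities of 10.16 and 11.30 in depleted cells, against 8.07 and 7.92 in control cells, a difference of 2.73 (SE 1.11, limma adjusted p = 0.621). In a limma model of the 4 arrays alone, which leaves out the spread between the arrays with an added cDNA, its SE was 0.40 and its adjusted p 0.252. Myh11, the smooth muscle myosin heavy chain, had 8.47 and 6.85 in depleted cells, against 6.50 and 6.34 in control cells, a difference of 1.24 carried largely by depleted replicate 1. Tagln2, a transgelin, differed by 0.40 at its brightest probe set, while another of its probe sets gave -0.14. Smtn, smoothelin, went the other way, with 9.11 and 9.15 in depleted cells, against 9.98 and 9.81 in control cells, a difference of -0.76 (SE 0.19, limma adjusted p = 0.429).

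Other contractile genes, chosen after their values were seen, had the following levels. Actg2, smooth muscle gamma actin, had 13.37 and 12.50 in depleted cells, against 11.17 and 9.70 in control cells. Cnn1, the actin-binding protein calponin, had 11.46 and 11.29 in depleted cells, against 9.65 and 9.48 in control cells. Its replicates lay close together in both groups, and the difference of 1.81 had an SE of 0.13 in the model of 4 arrays and of 0.81 in the model of 8. Lmod1, leiomodin, had 11.00 and 10.09 in depleted cells, against 9.02 and 8.22 in control cells. Myl9, a myosin regulatory light chain, had 13.85 and 13.30 in depleted cells, against 12.66 and 11.55 in control cells. In each of these genes both depleted arrays lay above both control arrays.

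Smaller differences ran through the rest of the list, also chosen after their values were seen. Srf itself had 10.66 and 10.77 in depleted cells, against 10.15 and 10.23 in control cells, a difference of 0.52. Cnn2 (0.66), Acta2 (0.65), Tpm2 (0.54) and Flna (0.52) were higher without overlap. Acta1, skeletal muscle actin, differed by 1.36, but its control arrays lay far apart at 10.08 and 11.90. Myh9, a nonmuscle myosin, differed by -0.0051 with overlapping groups.

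**Figure D4:**
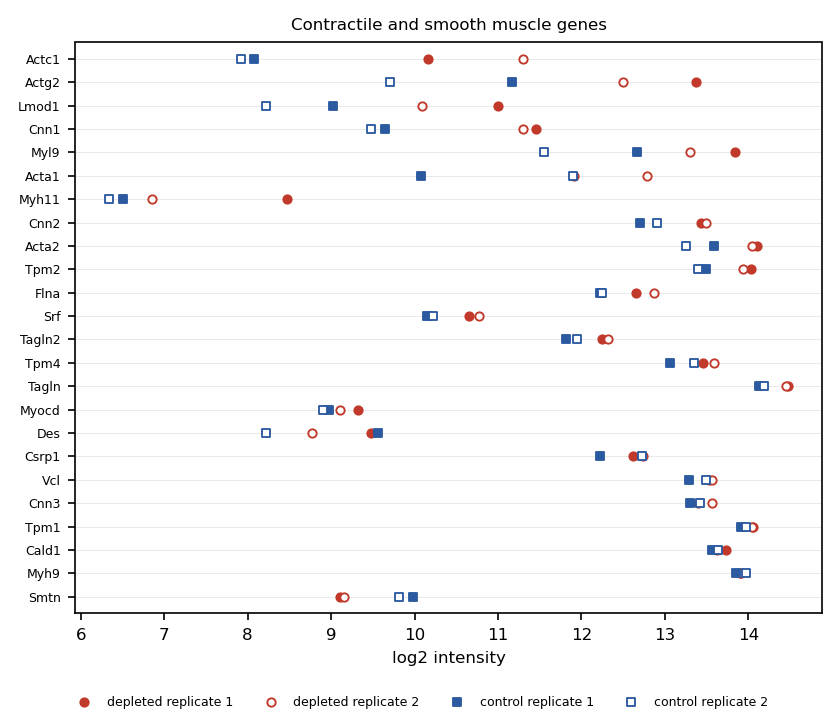
Log2 intensity on every array for the 24 contractile and smooth muscle genes, ordered by the difference between depleted and control cells. Circles are depleted and squares control arrays, filled for replicate 1 and open for replicate 2; from Actc1 (2.73) down to Smtn (-0.76), 18 genes have both depleted arrays above both control arrays.

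Fibroblast and feeder markers moved with the contractile genes, and fibroblasts also express many of them. Of 31 measured markers 25 had a higher mean in depleted cells, 19 (61.3%) were higher without overlap and 0 were lower without overlap. Col5a2, a fibrillar collagen, had 11.97 and 11.74 in depleted cells, against 10.94 and 10.65 in control cells, a difference of 1.06. Igfbp7, a secreted binding protein, had 11.86 and 11.48 in depleted cells, against 10.89 and 10.19 in control cells. Fbln5 (0.94), an elastic fibre protein, and Pdgfrb (0.51), a receptor of mesenchymal cells, were higher without overlap. Summed over the 31 markers, intensity was 124504 and 120613 in depleted cells, against 105643 and 100242 in control cells. The list's median difference was 0.31, and it ran from 0.22 (without control replicate 2) to 0.46 (without depleted replicate 2). The part of such cells in the contractile values was not tested. In bulk samples, more cells of a type and more RNA per cell cannot be told apart.

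Targets and members of the YAP pathway, which like Srf activity follows the state of the actin cytoskeleton, leaned upward, with members in both directions. Of 18 measured genes, 13 had a higher mean in depleted cells, and 7 (38.9%) were higher and 1 (5.56%) lower without overlap. Their median of 0.17 was 0.09 without control replicate 1, 0.33 without control replicate 2, 0.29 without depleted replicate 1 and 0.09 with the probe sets of a gene averaged. Ajuba, a LIM-domain regulator of the pathway, had 12.75 and 12.73 in depleted cells, against 12.43 and 12.15 in control cells. The DNA-binding partner gene Tead1 differed by 0.46 and Tead4 by -0.57, although another Tead1 probe set gave -0.08. For Lats2, the kinase that restrains YAP, 5 probe sets disagreed, from 0.48 at the brightest to -0.71. Ankrd1, a classic target chosen after its values were seen, had 12.33 and 11.25 in depleted cells, against 10.44 and 9.53 in control cells.

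Most genes of the epithelial junction and keratin list had a lower mean in depleted cells. Of 26 measured members, 21 had a lower mean, 8 (30.8%) were lower without overlap and 0 were higher without overlap. Krt7, a keratin of simple epithelia, had 10.09 and 10.73 in depleted cells, against 11.42 and 12.07 in control cells, a difference of -1.34 (SE 0.43, limma adjusted p = 0.561). Cldn4, a tight junction claudin, had 8.36 and 9.20 in depleted cells, against 9.52 and 10.62 in control cells, a difference of -1.29. Krt14, a keratin of basal epithelium, differed by -0.93. Replicates were unequal in both groups here, and in the same order. The list's median against the control mean was -0.58 in depleted replicate 1 and -0.18 in depleted replicate 2. In control replicates 1 and 2 it was -0.28 and 0.28. Without 1 array it ran from -0.67 (without control replicate 1) to -0.18 (without depleted replicate 1). Epcam and Cdh1, the general adhesion proteins of epithelial and ES cells, had overlapping groups with differences of 0.22 and -0.07; both were chosen after their values were seen.

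Genes of the cornified envelope, the protein shell of the outer skin, split. Of 17 measured, 4 (23.5%) were higher and 8 (47.1%) lower in depleted cells without overlap. Sprr2k, a small proline-rich envelope protein, had the largest difference of all genes tested, with 12.77 and 12.44 in depleted cells, against 9.42 and 9.57 in control cells. That difference was 3.10 (SE 0.80, limma adjusted p = 0.477), or 8.59-fold. Its relative Sprr1a went the other way, with 9.75 and 10.76 in depleted cells, against 11.32 and 12.14 in control cells, a difference of -1.48. Krt16, the usual partner of Krt6a in stressed skin, had 6.74 and 7.29 in depleted cells, against 8.14 and 9.50 in control cells. Lce1f, chosen after its values were seen, had 7.26 and 6.88 in depleted cells, against 9.16 and 8.69 in control cells. Sprr2 genes are near-identical copies of each other, so which member a probe set reads is uncertain.

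Trophoblast genes, whose silencing Sall4 is known for, were lower rather than higher in depleted cells. Of 24 measured, 16 had a lower mean, 12 (50%) were lower without overlap and 1 (4.17%) was higher without overlap. Besides Esx1 and Dlx3, Tpbpa, a marker of the spongiotrophoblast, had 5.28 and 5.21 in depleted cells (no present call), against 6.09 and 5.68 in control cells. Hand1 (-1.37), a basic helix-loop-helix factor of giant cells, and Plet1 (-1.05), a marker of trophoblast progenitors, were chosen after their values were seen. Fgfr2, the receptor through which FGF4 maintains trophoblast stem cells, was the exception, with 10.96 and 10.79 in depleted cells, against 10.01 and 9.94 in control cells, a difference of 0.90 (SE 0.16, limma adjusted p = 0.356). Its other probe set gave 0.26, also without overlap. The list's median of -0.50 ran from -0.65 (without control replicate 1) to -0.24 (without control replicate 2) and -0.21 (without depleted replicate 1). It was -0.22 over all named probe sets and -0.33 over genes called present on all 8 arrays. The list holds 4 keratins that other epithelia express as well, Krt7, Krt8, Krt18 and Krt19.

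The master factors of the trophoblast lineage showed no stable difference. Cdx2, which specifies trophectoderm, had 8.29 and 8.69 in depleted cells, against 8.61 and 7.71 in control cells, a difference of 0.33 that became -0.13 without control replicate 2. Eomes had 7.95 and 8.29 in depleted cells, against 7.34 and 8.19 in control cells, a difference of 0.36 that became -0.07 without control replicate 1. For both, the groups overlapped. Of 11 measured prolactin and placental product genes, 4 (36.4%) were higher and 1 (9.09%) lower in depleted cells without overlap, Prl3a1 being the highest by difference.

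For primitive endoderm, the other extraembryonic lineage, the list median and Sox17 turned on control replicate 2, while Gata4 and Gata6 lay below both control arrays. Gata4, a zinc-finger factor of this lineage, had 9.35 and 9.37 in depleted cells, against 9.91 and 10.47 in control cells, a difference of -0.83 (SE 0.39, limma adjusted p = 0.697). Gata6 had 8.77 and 8.49 in depleted cells, against 9.34 and 9.88 in control cells, a difference of -0.98. Sox17 had 9.06 and 9.43 in depleted cells, against 9.16 and 10.17 in control cells, and its difference of -0.42 became 0.08 without control replicate 2. Over 27 measured members 3 (11.1%) were higher and 5 (18.5%) lower without overlap, and the median of -0.14 became 0.03 without control replicate 2, -0.28 without control replicate 1 and -0.05 without depleted replicate 1.

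Heat shock genes, the chaperones that refold damaged proteins, were lower in depleted cells with few exceptions. Of 18 measured, 15 had a lower mean, 14 (77.8%) were lower without overlap and 1 (5.56%) was higher without overlap, Hspd1 by 0.08. At an unadjusted p under 0.05 there were 6 of the 18 lower and 0 higher, where all genes gave 3.81% lower and 4.11% higher. The median difference was -0.17, and without any 1 array it ran from -0.23 to -0.12; with the probe sets of a gene averaged it was -0.31. The list's differences ran from -2.03 in the inducible Hspa1a to 0.45 in Dnajb4, an Hsp70 partner whose groups overlapped. Hspd1 and Dnajb4 were chosen after their values were seen.

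Promoters of the near-identical pair Hspa1a and Hspa1b are shown because both hold a heat shock element, the binding motif of heat shock factor. They are RefSeq's, build GRCm38.p6, 5′ to 3′ on the gene's strand, with the element GAANNTTC in capitals. Hspa1a lies at chr17:34972157-34972406 and Hspa1b at chr17:34959239-34959488, both on the minus strand.
Hspa1a: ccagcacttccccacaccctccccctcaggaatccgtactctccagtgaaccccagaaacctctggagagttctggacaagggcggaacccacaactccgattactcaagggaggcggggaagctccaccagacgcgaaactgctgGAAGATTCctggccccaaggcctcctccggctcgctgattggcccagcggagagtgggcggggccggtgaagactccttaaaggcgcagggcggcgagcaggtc
Hspa1b: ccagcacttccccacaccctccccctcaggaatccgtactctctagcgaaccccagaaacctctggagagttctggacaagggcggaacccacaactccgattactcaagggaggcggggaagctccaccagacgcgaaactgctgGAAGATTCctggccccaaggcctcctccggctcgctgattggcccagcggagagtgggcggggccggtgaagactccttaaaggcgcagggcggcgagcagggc

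Over these 250 bases the pair differ at 3 positions, and in both the last base of the element lies 97 bases before the start of transcription. The element, searched on both strands, was found in 6 of 14 heat shock genes with a promoter in the table (42.9%): Dnaja1, Hspa1a, Hspa1b, Hspb1, Hspd1 and Hspe1. The share over all 27025 genes was 7.73%. As for the CArG box, the share describes the list and not the effect of depletion.

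Hspa1b had log2 intensities of 12.46 and 12.82 in depleted cells, against 13.33 and 13.63 in control cells, a difference of -0.84 (SE 0.25, limma adjusted p = 0.513). Its other kept probe sets gave -1.99 and -1.67, and because the genes are near-identical copies, probe sets of 1 may also read the other. Bag3, a co-chaperone of Hsp70, had 10.78 and 10.77 in depleted cells, against 11.34 and 11.59 in control cells, a difference of -0.69. Cryab, a small heat shock protein, had 13.06 and 13.27 in depleted cells, against 13.50 and 13.70 in control cells. Dnajb1 (-0.40), an Hsp70 partner chosen after its values were seen, was lower without overlap as well. Hsf2, a heat shock factor, had 8.07 and 5.61 in depleted cells, against 8.39 and 8.19 in control cells, so its difference of -1.46 rested on depleted replicate 2; it was chosen after its values were seen.

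Genes of lysosomes and autophagy, the routes by which cells degrade their own contents, were lower by small amounts. Of 26 measured, 21 had a lower mean, 17 (65.4%) were lower without overlap and 1 (3.85%) was higher without overlap. Gabarapl1, which coats autophagosomes, had 11.77 and 11.71 in depleted cells, against 12.27 and 12.44 in control cells, a difference of -0.62 (SE 0.13, limma adjusted p = 0.413). Sqstm1, the cargo receptor p62, had 13.08 and 13.08 in depleted cells, against 13.47 and 13.67 in control cells, a difference of -0.49, and its second probe set gave -1.04. The lysosomal enzymes Hexa (-0.41) and Ctsb (-0.31) were lower without overlap. The median of -0.15 was -0.10 without control replicate 2 and -0.14 without any other 1 of the 4 arrays.

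Stress genes that answer unfolded proteins or a lack of amino acids, which raise chaperones and amino acid supply under stress, were lower with 1 clear exception. Of 31 measured, 25 had a lower mean, and without overlap 2 (6.45%) were higher and 13 (41.9%) lower in depleted cells. Atf3, a stress-induced transcription factor, had 10.45 and 11.06 in depleted cells, against 11.78 and 12.58 in control cells, a difference of -1.42 (SE 0.39, limma adjusted p = 0.487). Ddit3, the factor CHOP, had 12.50 and 12.81 in depleted cells, against 13.30 and 13.80 in control cells, a difference of -0.90. Sdf2l1, an endoplasmic reticulum chaperone partner, differed by -0.55. Cth, which makes cysteine from cystathionine, had 11.95 and 12.45 in depleted cells, against 10.84 and 11.13 in control cells, a difference of 1.22 (SE 0.20, limma adjusted p = 0.316). The list's median was -0.24 and ran from -0.33 to -0.24 without 1 array.

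Immediate early genes, transcribed within minutes of a stimulus, had a lower mean in 20 of 23 cases, and 8 (34.8%) were lower and 0 higher without overlap. Junb, an AP-1 subunit, had 7.27 and 7.68 in depleted cells, against 7.97 and 8.40 in control cells, a difference of -0.71. Fosb, another AP-1 subunit, differed by -0.63 and the RNA-binding regulator Zfp36 by -0.51. The median of -0.31 was -0.05 without control replicate 2, -0.15 without depleted replicate 1 and -0.47 without depleted replicate 2.

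The oxidative stress list was mixed, with 4 genes (19%) higher and 9 (42.9%) lower without overlap among 21 measured. Srxn1, which repairs oxidised peroxiredoxins, had 11.70 and 11.53 in depleted cells, against 12.30 and 12.62 in control cells, a difference of -0.85 (SE 0.19, limma adjusted p = 0.416). Hmox1, haem oxygenase, differed by -0.32 and the glutathione peroxidase gene Gpx4 by -0.26. Among 24 p53 targets 1 (4.17%) was higher and 5 (20.8%) were lower without overlap, and the smallest p were those of Gadd45b (-0.57), Gadd45a (-0.49), Phlda3 (-0.29) and Sesn1 (-0.24). The largest difference of that list was in Fas, a death receptor chosen after its values were seen, with 10.32 and 10.78 in depleted cells, against 9.25 and 9.53 in control cells, a difference of 1.16 (SE 0.91, limma adjusted p = 0.858). In the limma model of the 4 arrays alone its SE was 0.21 and its adjusted p 0.295.

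**Figure D5:**
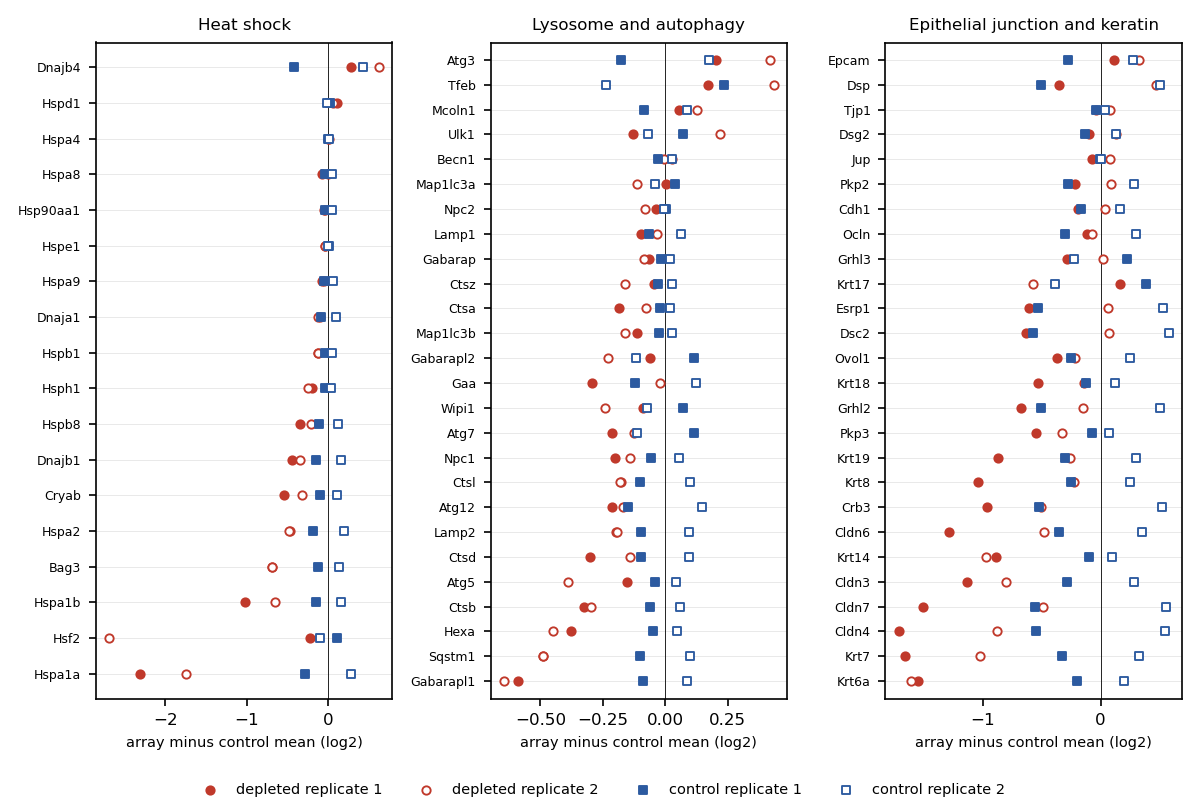
Log2 intensity minus the control mean on every array for the heat shock, lysosome and autophagy, and epithelial junction and keratin lists; each panel has its own horizontal scale. Circles are depleted and squares control arrays, filled for replicate 1 and open for replicate 2. Heat shock and lysosomal genes are mostly left of 0 on both depleted arrays. In the epithelial list depleted replicate 1 lies further left (median -0.58) than depleted replicate 2 (-0.18), as does control replicate 1 (-0.28) against control replicate 2 (0.28).

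Of 20 measured neural genes, 9 (45.0%) were higher and 2 (10%) lower in depleted cells without overlap. Their median of 0.20 was 0.10 without depleted replicate 1 and 0.11 with no filter on calls. Zic2, a zinc-finger factor of the epiblast and neural plate, had 9.96 and 9.76 in depleted cells, against 8.91 and 8.08 in control cells, a difference of 1.36 (SE 0.30, limma adjusted p = 0.416). Sox1, an early marker of neuroectoderm, had 8.09 and 8.37 in depleted cells, against 6.33 and 6.98 in control cells, a difference of 1.57. Map2, a neuronal microtubule protein, differed by 0.59 at its brightest probe set and by -0.15 at another.

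Among 20 genes of the epiblast and primed state, 7 (35.0%) were higher and 3 (15%) lower without overlap. Besides Zic2, the higher genes included Zic5 (0.79) and the neurofilament gene Nefl, which had 10.87 and 11.26 in depleted cells, against 9.95 and 10.42 in control cells. The claudin gene Cldn6 had the lowest difference of the list, -0.88, and was lower without overlap. Fgf5, the textbook marker of the primed epiblast, had 5.72 and 6.50 in depleted cells, against 5.62 and 7.40 in control cells, and its difference of -0.40 became 0.48 without control replicate 2. In the mesoderm list 4 of 14 (28.6%) were higher and 0 lower without overlap, among them Snai2 (0.37) and the endothelial receptor gene Kdr (0.74). Of 27 Hox genes, 3 (11.1%) were higher and 4 (14.8%) lower without overlap, where all genes gave 21.5% and 19.6%. Hoxd10 had 7.04 and 7.20 in depleted cells, against 8.23 and 7.95 in control cells, a difference of -0.97.

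Signalling pathways of early development were read as ligands, receptors and feedback targets. In the Nodal pathway the feedback inhibitors stood out: Lefty1 had 8.04 and 7.59 in depleted cells, against 6.97 and 6.27 in control cells, a difference of 1.19 (SE 0.28, limma adjusted p = 0.416). Lefty2 had 8.59 and 8.75 in depleted cells, against 8.07 and 7.45 in control cells, a difference of 0.91. The ligand Nodal (0.33) and Foxh1 (0.57), the DNA-binding partner of its Smads, were higher without overlap too. Even so the list as a whole was balanced, with 7 of 21 (33.3%) higher and 7 (33.3%) lower without overlap.

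For fibroblast growth factor (FGF) signalling, 18 of 22 genes had a higher mean in depleted cells, and without overlap 9 (40.9%) were higher and 1 (4.55%) was lower. Along with the receptor Fgfr2, the feedback inhibitors Spry4, with 10.45 and 10.70 in depleted cells, against 10.14 and 9.48 in control cells, and Spred1 (0.27) were higher. Another Fgfr2 probe set gave only 0.26, without overlap. The other Spry4 probe sets gave 0.88 without overlap and 0.05 with overlapping groups. The median of 0.14 ran from 0.11 to 0.18 without 1 array. In bone morphogenetic protein signalling the Id genes, which block differentiation factors by dimerising with them, were higher. Id1 differed by 0.91, Id2 by 0.67 and Id4 by 0.47, each without overlap. The other Id4 probe sets gave 0.30 without overlap and 0.02 with overlapping groups. The whole list had 6 of 21 (28.6%) higher and 4 (19%) lower without overlap, where all genes gave 21.5% and 19.6%.

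LIF, which keeps mouse ES cells undifferentiated through Stat3, had targets in both directions. Without overlap, 5 of 20 (25%) were higher and 5 (25%) lower, where all genes gave 21.5% and 19.6%. Pim1, a kinase induced by Stat3, had 11.32 and 11.28 in depleted cells, against 11.96 and 11.90 in control cells, a difference of -0.63 (SE 0.12, limma adjusted p = 0.356). Socs3, the feedback inhibitor of the same pathway, was higher by 0.40 without overlap. Wnt targets had 6 of 17 (35.3%) higher and 0 lower without overlap, against the same shares of all genes. Notum, a secreted Wnt inhibitor, had 8.59 and 8.74 in depleted cells, against 7.79 and 7.98 in control cells, a difference of 0.78 (SE 0.20, limma adjusted p = 0.449). Of 12 Hedgehog genes, 3 (25%) were higher and 2 (16.7%) lower without overlap, near the shares of all genes. Hhip, which traps the ligand, had 9.21 and 9.19 in depleted cells, against 7.29 and 7.77 in control cells.

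The core pluripotency factors lay close to control, with Klf4 lower without overlap. Pou5f1 had 13.31 and 13.25 in depleted cells, against 13.39 and 12.91 in control cells. Nanog had 13.34 and 13.34 in depleted cells, against 13.46 and 13.27 in control cells. The groups overlapped in both, with differences of 0.13 and -0.03. Sox2 differed by 0.15 and Esrrb by -0.03, also with overlapping groups. Klf4 had 12.15 and 12.35 in depleted cells, against 12.47 and 12.60 in control cells, a difference of -0.28. Its other probe set gave -0.22, also without overlap. Of the core factors, Pou5f1 turned to -0.11 without control replicate 2, and Nanog to 0.07 and Esrrb to 0.22 without control replicate 1.

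Around this core, 15 of 37 pluripotency genes (40.5%) were higher and 3 (8.11%) lower in depleted cells without overlap. Lin28a, an RNA-binding protein that blocks let-7 maturation, had 12.36 and 12.48 in depleted cells, against 11.69 and 11.15 in control cells, a difference of 1.00 (SE 0.38, limma adjusted p = 0.597). Tcea3, an elongation factor, had 11.14 and 11.34 in depleted cells, against 10.73 and 10.06 in control cells, a difference of 0.85. L1td1, an RNA-binding protein of ES cells, differed by 0.44. Dppa3, a maternal and germ cell factor, went the other way, with 9.89 and 9.63 in depleted cells, against 11.38 and 10.26 in control cells. The list's median of 0.13 was 0.31 without control replicate 1 and 0.03 without control replicate 2. Genes listed for the 2-cell-like state, some of which ES cells express now and then, were higher without overlap in 9 of 13 cases (69.2%) and lower in 0. Their median of 0.28 was 0.45 without depleted replicate 1, and 0 of them had an unadjusted limma p under 0.05. The largest difference on that list was in Pramel7, which had 9.80 and 9.45 in depleted cells, against 8.32 and 7.89 in control cells.

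Genes of the G2 and M phases, which build the spindle and divide the chromosomes, had a higher mean in 37 of 38 cases in depleted cells. Without overlap, 19 (50%) were higher and 1 (2.63%) lower. This turned on the control arrays, which lay on either side of their mean by 0.19. The median of 0.21 was 0.43 without control replicate 1 and 0.05 without control replicate 2, when only 24 of 38 were higher.

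Ccnb2, the cyclin B2 gene, is shown as the example because its promoter holds 3 copies of the CCAAT box, the site of NF-Y that is common in genes of these phases. It is RefSeq's, build GRCm38.p6, chr9:70421555-70421804 on the minus strand, 5′ to 3′, with each CCAAT in capitals.
Ccnb2: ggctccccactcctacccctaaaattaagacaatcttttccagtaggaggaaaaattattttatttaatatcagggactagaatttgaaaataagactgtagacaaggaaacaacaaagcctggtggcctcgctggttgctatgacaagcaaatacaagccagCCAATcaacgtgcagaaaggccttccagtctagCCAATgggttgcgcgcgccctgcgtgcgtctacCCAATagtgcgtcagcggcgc

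A CCAAT on either strand was found in 24 of 32 G2 and M genes with a promoter in the table (75%), against 37.5% of all 27025 genes. A second element of such genes, TTTGAA on either strand, was found in 13 of 32 (40.6%), against 18.3%. Both shares describe the list and not the effect of depletion. Ccnb2 had log2 intensities of 11.80 and 11.82 in depleted cells, against 11.68 and 10.98 in control cells. Nusap1, a spindle protein, had 11.80 and 11.93 in depleted cells, against 11.37 and 11.21 in control cells, a difference of 0.58 (SE 0.19, limma adjusted p = 0.561). Its other probe set gave 0.12, with overlapping groups. Anln (0.39), which works in the cleavage furrow, and the spindle factor gene Tpx2 (0.33) were higher without overlap. Of 36 genes of the G1 and S phases, 10 (27.8%) were higher and 3 (8.33%) lower without overlap, where all genes gave 21.5% and 19.6%. Cdk6, a kinase that opens S phase, had 10.36 and 10.22 in depleted cells, against 8.87 and 9.34 in control cells. The DNA repair list had 4 of 25 (16%) higher and 0 lower, Atr among the 4 with a difference of 0.40, and its median of 0.10 became -0.08 without control replicate 2, 0.31 without control replicate 1 and 0.03 without depleted replicate 1.

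Chromatin partners of Sall4 differed little. Of 15 measured NuRD genes, 4 (26.7%) were higher and 1 (6.67%) was lower without overlap, and the median of 0.01 became -0.04 without depleted replicate 2, -0.03 without control replicate 2 and -0.01 without control replicate 1. Hdac2, a deacetylase subunit, had 12.65 and 12.65 in depleted cells, against 12.44 and 12.39 in control cells. Chd3, a remodelling helicase, had 8.87 and 9.05 in depleted cells, against 8.35 and 8.25 in control cells. Mbd3 differed by -0.32 and Mta2 by -0.25, both with overlapping groups. Polycomb genes had 7 of 27 (25.9%) higher and 4 (14.8%) lower without overlap, where all genes gave 21.5% and 19.6%. Ezh2 and Eed, the methyltransferase and its partner, were both at 0.24. Ezh1 was at -0.34, while its other probe sets gave -0.25 without overlap and 0.09 with overlapping groups.

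Imprinted genes, expressed from 1 parental allele, leaned upward, with 12 of 29 (41.4%) higher and 1 (3.45%) lower without overlap. Their median of 0.13 was 0.20 without depleted replicate 1 and 0.23 over all named probe sets. Ppp1r9a, a neuronal actin-binding protein, had 9.40 and 9.29 in depleted cells, against 8.55 and 8.53 in control cells, a difference of 0.81 (SE 0.15, limma adjusted p = 0.356). Plagl1, a zinc-finger factor, differed by 0.28 and Cdkn1c, a cell cycle inhibitor, by -0.49. Of 23 germ cell genes 1 (4.35%) was higher and 3 (13%) lower without overlap, where all genes gave 21.5% and 19.6%.

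Glycolysis held a difference with a small error. Pkm, pyruvate kinase, had 12.60 and 12.67 in depleted cells, against 13.62 and 13.53 in control cells, a difference of -0.94 (SE 0.11, limma adjusted p = 0.197), or 1.92-fold lower. The list as a whole did not follow it: 6 of 29 (20.7%) were higher and 8 (27.6%) lower without overlap, and the median of -0.04 was -0.09 without depleted replicate 1 and -0.08 with the probe sets of a gene averaged. The lactate exporter gene Slc16a3 was higher by 0.71 and the muscle enolase gene Eno3 by 0.59, while the hypoxia gene Ndrg1 differed by -0.85.

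Immune genes gave a few large differences. Of 14 measured blood and immune markers, 1 (7.14%) was higher and 4 (28.6%) lower without overlap, and 9 were called present on all 4 arrays. Cd68, a lysosomal protein of macrophages, had 10.61 and 10.81 in depleted cells, against 11.37 and 11.70 in control cells, a difference of -0.83 (SE 0.18, limma adjusted p = 0.409). Csf1r, the receptor of macrophage colony-stimulating factor, had 6.29 and 7.29 in depleted cells, against 7.72 and 8.69 in control cells. The list did not move as 1: 8 of its 14 genes had a higher mean in depleted cells, and its median was 0.05, which became -0.14 without control replicate 2 and -0.08 without depleted replicate 1. Summed intensity over the 14 markers was 6446 and 6576 in depleted cells, against 8057 and 7038 in control cells, and the part of such cells in the Mmp12 value was not tested.

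Interferon-response genes were balanced, with 6 of 30 (20.0%) higher and 7 (23.3%) lower. H2-K1, a class I histocompatibility antigen, had 10.36 and 10.57 in depleted cells, against 11.13 and 11.77 in control cells, and the RNA sensor gene Ddx58 was higher by 0.62. Of 16 matrix protease and inhibitor genes, Mmp12 included, 6 (37.5%) were higher and 3 (18.8%) lower without overlap. Mmp14, a membrane-bound collagenase, had 9.23 and 9.19 in depleted cells, against 8.50 and 8.62 in control cells.

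Some of the largest differences fell into enzyme and adhesion families outside the lists, which were chosen after their values were seen. Aldh1a7, an aldehyde dehydrogenase, had 8.89 and 8.82 in depleted cells, against 6.23 and 6.26 in control cells, a difference of 2.61 (SE 0.60, limma adjusted p = 0.416). In the limma model of the 4 arrays alone its SE was 0.11 and its adjusted p 0.136. Its near neighbour in sequence Aldh1a1, which makes retinoic acid, had 7.56 and 7.41 in depleted cells, against 5.99 and 5.85 in control cells. The other retinal dehydrogenase genes did not follow, with Aldh1a2 at 0.04 and Aldh1a3 at -0.33, and the retinoic acid targets Cyp26a1 (-0.31) and Rarb (-0.09) were not higher either.

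Aldo-keto reductases, which act on steroids, gave a second family. Akr1c14 had 8.17 and 8.58 in depleted cells, against 5.72 and 5.67 in control cells, a difference of 2.68. Akr1c18, which inactivates progesterone, had 9.60 and 8.95 in depleted cells, against 7.75 and 6.84 in control cells. In both families the members are similar in sequence, so probe sets may read more than 1 of them.

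Receptors for matrix and for other cells, and a hormone subunit, were chosen in the same way. Vcam1, an adhesion molecule, had 7.07 and 6.36 in depleted cells, against 4.38 and 4.48 in control cells, a difference of 2.29. Itga1 (1.59), a collagen receptor subunit, and Itga8 (1.57), its smooth muscle relative, were higher without overlap. Cav1, which coats caveolae, had 12.47 and 12.19 in depleted cells, against 10.81 and 10.41 in control cells. Cga, the common alpha subunit of glycoprotein hormones, was called present on no control array and was at least 3.29-fold higher in depleted cells.

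In 12 further lists, medians lay between -0.07 (cholesterol synthesis) and 0.11 (apoptosis). The others were ribosomal proteins, ribosome biogenesis, mitochondrial respiration, fatty acid synthesis, the proteasome, splicing factors, small RNA pathways, DNA methylation, SWI/SNF and Trithorax, and the Notch pathway. Of their 299 measured member entries, 0 were at least 1 log2 higher or lower without overlap, where all genes gave 1.24% and 0.478%. Ribosomal proteins had 6 of 35 (17.1%) higher and 6 (17.1%) lower.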

How the data were processed

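The authors deposited linear intensities for each probe set of each array, made with RMA per the submitters' processing notes, from RNA amplified before labelling per the labels' protocols. RMA corrects background, equalises the arrays' distributions and summarises probes, which can narrow differences that affect most genes. A whole-series table adds present, marginal or absent calls; how these were made is not stated in those sources. The 3 deposited tables held identical intensities.

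Of 45101 probe sets, 64 array controls were dropped. By GEO's platform annotation there was 1 symbol for 34958, several for 932 and no entry for 9211. Of the symbols, 34754 matched RefSeq by Entrez identifier and 0 changed. Being called present on at least 2 of 8 arrays kept 31554 probe sets, and the brightest of each gene gave 14027 genes. Log2 was taken with no pseudocount and no further normalization. Folds are "at least" where the dimmer group was called present on no array.

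In R 4.3.3, limma 3.58.1 fitted the means of the 4 groups over the 8 arrays (lmFit and eBayes, 4 residual degrees of freedom, 6.20 after moderation), with Benjamini-Hochberg adjustment over all genes and a threshold of 0.05. As a check of the code, data were simulated with 200 changed genes among 14027. The fit of depleted against control cells recovered 38.5% of changes of 1 log2, 82.5% of 2 log2 and 93.3% of 3 log2. False calls averaged 4.1, 8.3 and 9.5 per data set. Changes in a simulated set were all of 1 size, and noise was independent between arrays. Real replicate differences were shared by control and depleted cells (r = 0.568), so these shares do not give the power on the real arrays. The number of arrays limits the precision.

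The comparison, its genes and the 50 lists were chosen with earlier results of these data known. Named genes are Sall4, the 15 with the smallest p in each direction among genes without overlap that differ by at least 1 log2, the up to 4 members with the smallest p from each list, and fixed lineage genes. Any other gene is said to be chosen with its values in view. Clone and predicted symbols were passed over. Promoters are the 250 bases before RefSeq's annotated starts.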

Additional observations from a re-analysis of the deposited data

How the results depend on the processing

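Each group has 2 arrays, and the labels do not say that a replicate number marks a shared culture, so the numbers were not used to pair arrays. Across genes, the difference between replicates 1 and 2 in depleted cells correlated with that in control cells (r = 0.568), against -0.12 to 0.20 for the other pairs of groups. With the replicate number as a block on the 4 arrays (1 residual degree of freedom), limma called 272 genes, 184 higher and 88 lower in depleted cells, among them all 30 named for the smallest p, and the dimmer Sall4 probe set (-1.25, adjusted p = 0.0225). With the same block on 8 arrays it called 0. Calls numbered 2 (1 higher, 1 lower) with a trended and robust prior, 0 to 1 when 1 array was left out (the 1, higher, without depleted replicate 2), and 0 under every other setting tried. Genes at least 1 log2 apart numbered 174 to 264 higher and 63 to 206 lower when 1 array was left out, and 104 lower with every named probe set counted on its own.

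Of 4348 values of named genes under alternatives, 4267 kept their direction and side of the threshold, 62 came to pass it and 19 reversed, 0 of the reversals among the 30 named for the smallest p. Taking the mean of a gene's probe sets turned Lats2 to -0.022, Eif4e to -0.028, Pes1 to 0.034, Sdha to -0.070 and Sc5d to 0.11, and keeping genes regardless of calls turned Shh to 0.15. Leaving out 1 array gave ranges of -0.11 to 0.36 for Pou5f1, -0.12 to 0.066 for Nanog, -0.29 to 0.22 for Esrrb, -0.13 to 0.78 for Cdx2, -0.071 to 0.78 for Eomes, -0.92 to 0.084 for Sox17, -1.29 to 0.48 for Fgf5, -0.026 to 0.49 for Wnt8a, -1.10 to 0.0004 for Taf7l, -0.0093 to 0.41 for Fanci, -0.058 to 0.28 for Rps6, -0.11 to 0.0013 for Rps25 and -0.22 to 0.020 for Pes1. Of 50 list medians, 9 changed sign without control replicate 1, 14 without control replicate 2, 5 without depleted replicate 1 and 6 without depleted replicate 2. The cause was not tested.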
